A study of Mus musculus with 9 samples.

Results

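The genes Yap1, Wwtr1, Tead1, Tead2, Tead3, Tead4, Lats1, Lats2, Amotl2 and Ankrd1 of the Hippo pathway were followed through cells prepared as mouse Müller glia, the radial glial cells that span the retina. The genes were chosen by name, as coactivators, DNA-binding partners, kinases and targets of the pathway. All 10 were listed among the 17035 genes of the culture table, and 8 among the 16367 genes of the sorted-cell table, where Tead4 and Ankrd1 were not listed. RNA was sequenced from 9 libraries, 3 in each of 3 groups, all labelled genotype WT and cell type Muller glia. Sham mice had received a corneal incision and no oil. Mice with ocular hypertension (OHT) had received 1.2 µL of silicone oil in the front chamber of both eyes, a procedure that raises the pressure in the eye. Each sham or OHT library came from a pool of 4 retinas, dissociated with papain, depleted of dead cells and captured on magnetic beads through the surface transporter GLAST, which retinal astrocytes also carry. For these mice the sources used here give neither strain nor age nor the time after injection. The 3 untreated primary cultures were grown from retinas of C57BL/6J pups of postnatal day 8 to 10 on gelatin in medium with fetal bovine serum, and were passaged once confluent.

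The Hippo pathway links cell shape, cell contact and tension to transcription. Its kinase cascade ends in LATS1 and LATS2, which phosphorylate YAP (encoded by Yap1) and its relative TAZ (encoded by Wwtr1) and so hold them in the cytoplasm, where they are degraded or kept from the genome. Unphosphorylated YAP and TAZ enter the nucleus and bind TEAD factors, which carry them to target genes such as Ccn1, Ccn2 and Ankrd1. In the mouse retina YAP is found in Müller glia and has been linked to their response to injury. The control lies largely at the level of the proteins and their location, which RNA does not measure.

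Lats2 and Amotl2 are members of the pathway that are also induced by YAP and TAZ, and Ankrd1 encodes a cardiac and muscle ankyrin-repeat protein that is a standard readout of their activity. The bases just upstream of a start site are shown for Ankrd1 and Amotl2, the 2 members with the highest level in the cultures, and for the coactivators Yap1 and Wwtr1 themselves. Capitals mark GGAATG or its reverse complement CATTCC, the core letters that TEAD factors recognise. The sequences are from RefSeq on build GRCm38.p6, each of 250 bases, written 5′ to 3′ on the strand of the gene. They lie at chr19:36119845-36120094 (minus strand) for Ankrd1, chr9:102717554-102717803 (plus strand) for Amotl2, chr9:8004597-8004846 (minus strand) for Yap1 and chr3:57575911-57576160 (minus strand) for Wwtr1. The deposited tables were made on mm39, and no coordinate was carried between the builds.
Ankrd1: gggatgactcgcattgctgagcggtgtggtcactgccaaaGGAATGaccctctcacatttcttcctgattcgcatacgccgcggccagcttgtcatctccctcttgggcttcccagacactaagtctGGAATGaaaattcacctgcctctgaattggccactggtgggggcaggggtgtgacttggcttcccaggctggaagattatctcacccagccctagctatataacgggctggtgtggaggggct
Amotl2: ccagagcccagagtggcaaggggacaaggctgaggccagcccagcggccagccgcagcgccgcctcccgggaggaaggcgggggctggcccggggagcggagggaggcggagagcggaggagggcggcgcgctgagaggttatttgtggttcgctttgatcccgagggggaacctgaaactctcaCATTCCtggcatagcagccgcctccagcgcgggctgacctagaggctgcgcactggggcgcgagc
Yap1: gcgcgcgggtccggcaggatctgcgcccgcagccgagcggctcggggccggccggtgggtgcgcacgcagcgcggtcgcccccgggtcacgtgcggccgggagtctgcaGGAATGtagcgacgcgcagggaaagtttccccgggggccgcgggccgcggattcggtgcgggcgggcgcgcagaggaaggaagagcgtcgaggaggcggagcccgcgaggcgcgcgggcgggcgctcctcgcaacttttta
Wwtr1: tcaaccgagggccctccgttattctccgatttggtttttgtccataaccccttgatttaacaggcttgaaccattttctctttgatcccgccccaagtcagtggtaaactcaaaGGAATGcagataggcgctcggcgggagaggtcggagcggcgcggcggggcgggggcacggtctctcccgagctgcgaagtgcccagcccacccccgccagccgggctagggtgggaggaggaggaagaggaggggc
Ankrd1 held the motif 2 times, with first bases 210 and 123 bases before the start site, in the orientation GGAATG. Amotl2 held 1 copy 65 bases before the start, in the orientation CATTCC. Yap1 held 1 copy at 141 bases and Wwtr1 1 copy at 136 bases, both as GGAATG. From another listed start site of Wwtr1 the same copy lay at 170 bases. Of the 10 members, 8 had a sequence in this set and 5 of the 8 held the motif in at least 1 window: these 4 and Tead3. Lats1, Lats2 and Tead2 held 0 copies. Over all genes with a sequence, 14.4% of 27025 held it on either strand, as did 12.6% of 32851 windows, and of the YAP and TAZ target list 6 of 15. Such a match is a description of letters and was not tested for binding.

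Depth ran from 37.8 to 53.6 M recovered reads in the sorted libraries and from 66.3 to 76.7 M in the cultures, and the identity of the cells was checked on marker lists. The sorted libraries held RNA of several cell types, and 11 of the 13 Müller glia markers had lower mean levels in the cultures than in sham. In the sham libraries the 13 Müller glia genes together made 0.391%, 0.938% and 0.421% of the total, and in the OHT libraries 0.220%, 0.214% and 0.462%. The 12 genes of microglia and macrophages made 3.35% to 5.22% in sham and 4.54% to 6.13% in OHT. In the cultures the Müller glia list made 0.346% to 0.428%, led by Vim (2757 ppm) and Prdx6 (703 ppm), where ppm are reads per 1e+06 reads of the library. Rlbp1, the retinal carrier protein of Müller glia, had a mean of 2.24 ppm there against 1192 ppm in sham, and the potassium channel Kcnj10 0.318 ppm against 40.1 ppm. Other markers stayed detected at lower levels, among them Dkk3 at 215 ppm, Glul, glutamine synthetase, at 36.3 ppm, Slc1a3, which encodes GLAST, at 35.0 ppm and Sox9 at 14.9 ppm. The exceptions were Prdx6, at 1.01 times its sham mean, and Vim, at 24.6 times. The list of mural cells and fibroblasts made 1.62% to 1.92% of the culture libraries, with Acta2 at a mean of 10370 ppm and Col1a1 at 5717 ppm. Rgs5 and Kcnj8 of the same list had lower means there than in sham (3.04 against 172 ppm and 0.0438 against 3.63 ppm). The other genes of the list had higher means in the cultures. The cultures are therefore called primary cultures here, and the sorted libraries GLAST-sorted cells. In such bulk RNA, fewer cells of a type and less RNA per cell cannot be told apart.

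**Figure D1:**
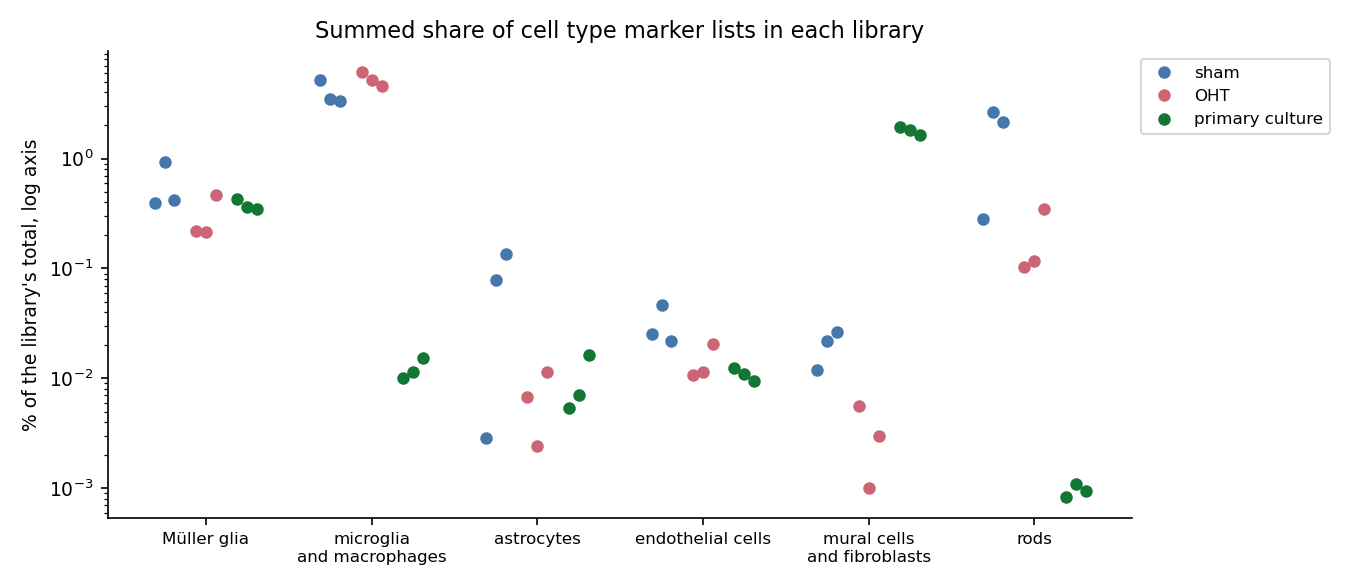
Summed share of the marker lists of 6 cell types in each library, in % of all reads of that library on a log axis. Each point is 1 library. The microglia and macrophage list lies above the Müller glia list in all 6 sorted libraries, and the mural cell and fibroblast list is highest in the 3 primary cultures.

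OHT was compared with sham to ask whether raised pressure moved the RNA of the pathway in GLAST-sorted cells. None of the 8 listed members passed the threshold of an adjusted p of 0.05. The coactivators Yap1 and Wwtr1 and the factors Tead1 and Tead2 had lower means in OHT, between 2.05-fold (Tead1) and 4.53-fold (Yap1), and Wwtr1, Tead1 and Lats1 were lower in every OHT library than in every sham library. The values of the other 5 members overlapped between the groups. Of all tested genes 9.18% were lower and 9.26% higher without such overlap. Values are normalised counts, that is gene counts divided by 1 factor for each library. The test was limma on log2(value + 1), with Benjamini-Hochberg adjustment over the 14403 genes whose sham and OHT libraries averaged 10 or more. Under it 0 genes of the whole table passed (percent called 0 higher and 0 lower), while 773 were higher (5.37%) and 907 lower (6.3%) at an unadjusted p below 0.05. Of the 8 members, 0 were among these.

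Yap1 encodes the coactivator YAP. Its normalised counts were 119, 806 and 221 in the sham libraries (mean 382 ± 371, SD, n = 3) and 45.6, 149 and 58.5 in the OHT libraries (84.4 ± 56.3, SD, n = 3). Sham replicate 2 stood far above the other sham libraries, and the groups overlapped because OHT replicate 2 exceeded sham replicate 1. OHT minus sham was -1.90 on the log2 scale (SE 0.94, limma adjusted p = 0.455). A two-sided exact permutation test of the normalised counts gave p = 0.2, where 0.1 is the smallest p that 3 against 3 libraries allow. Without sham replicate 2 the log2 difference was -1.13. The spread of Yap1 among the sham libraries, 6.79-fold from lowest to highest, was matched or exceeded by 3.77% of 11580 genes.

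Wwtr1 encodes the coactivator TAZ. Its normalised counts were 253, 177 and 310 in sham (247 ± 66.7, SD, n = 3) and 37.3, 135 and 61.7 in OHT (78.0 ± 50.8, SD, n = 3). Every OHT library lay below every sham library, and sham replicate 2, the highest for Yap1, was the lowest sham library for Wwtr1. On the log2 scale the difference was -1.81 with SE 0.84 (limma adjusted p = 0.436), and the exact permutation test gave p = 0.1. Depth behind these values was 761 recovered reads over the sham and 268 over the OHT libraries.

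The TEAD genes encode the DNA-binding partners of the coactivators. Tead1 was at 182, 277 and 199 normalised counts in sham and at 56.7, 107 and 157 in OHT, without overlap, with a log2 difference of -1.12 (SE 0.79, limma adjusted p = 0.565). Tead2 was at 134, 356 and 254 in sham and at 62.2, 184 and 41.7 in OHT, so that OHT replicate 2 overlapped with the sham libraries, and its log2 difference was -1.54 (SE 0.88, limma adjusted p = 0.502). Tead3 was close to the limit of detection, at 0, 16.6 and 31.6 in sham and 11.1, 18.9 and 11.2 in OHT. The 0 in sham replicate 1 allows up to 0.0793 ppm, the worth of 3 reads, a limit that covers counting error only. For Tead3 the log2 difference of 0.79 (SE 1.68, limma adjusted p = 0.852) and the difference of the means, which was lower in OHT, had opposite signs. Without sham replicate 1 the log2 difference of Tead3 was -0.74.

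Of the kinases that restrain YAP and TAZ, Lats1 was the steadiest member among the sham libraries, at 376, 422 and 454 normalised counts, a spread that 87.5% of genes matched or exceeded. In OHT it was at 130, 352 and 368, below sham in all 3 libraries, with OHT replicates 2 and 3 close to the lowest sham library. In ppm of the library total the groups overlapped, since OHT replicate 3 was at 9.74 ppm and sham replicate 1 at 9.62 ppm. Its log2 difference was -0.70 (SE 0.64, limma adjusted p = 0.658). Lats2, which YAP and TAZ also induce, was at 600, 291 and 521 in sham and 120, 449 and 761 in OHT. OHT replicate 1 was the lowest and OHT replicate 3 the highest of the 6 libraries, with a difference of -0.38 on the log2 scale (SE 0.74, limma adjusted p = 0.837).

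Amotl2 encodes an angiomotin that binds YAP and TAZ and is also one of their targets. It was at 201, 477 and 313 normalised counts in sham and 772, 372 and 83.3 in OHT. OHT held both the highest and the lowest library, 9.27-fold apart, a spread that 8.95% of 11002 genes matched or exceeded in OHT. OHT minus sham was -0.11 on the log2 scale (SE 0.84, limma adjusted p = 0.963), although the OHT mean of 409 was above the sham mean of 330. Across the 6 sorted libraries Amotl2 and Lats2, both targets, had a Pearson r of -0.88, the lowest of all pairs of members. The highest was 0.92 for Yap1 and Tead2, followed by 0.90 for Tead1 and Lats1 and 0.82 for Lats2 and Lats1. These are descriptions over 6 libraries of 2 groups. The genes of each pair were read in the same libraries, whose depth and cell makeup differed.

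**Figure D2:**
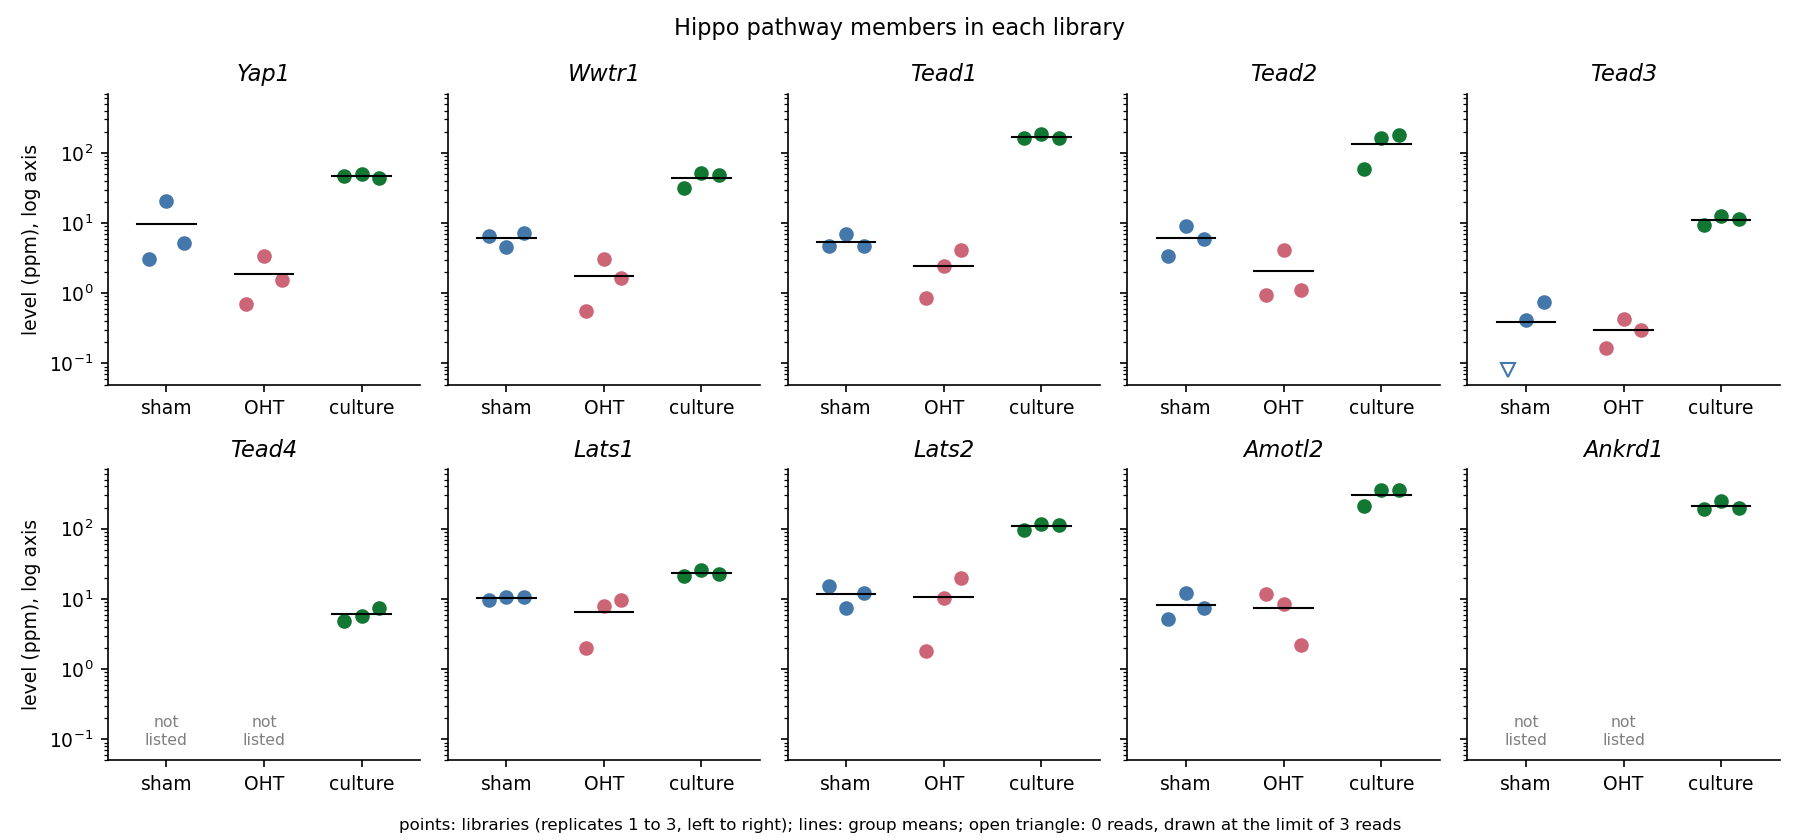
Level of the 10 members in each library, in ppm on a log axis, for sham, OHT and primary cultures. Points are libraries, lines are group means, and the open triangle marks 0 reads at the limit of 3 reads. All cultures lie above all sorted libraries for the 8 members listed in both tables, and Tead4 and Ankrd1 have values in the cultures alone because the sorted table does not list them.

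Over the members as a group, 7 of 8 log2 differences were below 0 and their median was -0.91, beside 54.8% below 0 and a median of -0.12 over all 14403 genes. Wwtr1, Tead1 and Lats1, 3 of the 8, were lower without overlap, and 0 were higher, beside 9.18% and 9.26% of all genes. In ppm Lats1 overlapped. The choice of scaling moved these values. With quantile normalisation the members' median was -0.25 with 5 of 8 below 0, and the median of all genes was 0.01. With the mean log2 value of the Müller glia list set equal in every library, the members' median was -0.27, again with 5 of 8 below 0, and the median of all genes was 0.52. Relative to the median of all genes the members' median was -0.79 under the deposited scaling and -0.26 under quantile normalisation. Setting the Müller glia list equal shifts all genes of a library alike, so it leaves this value at -0.79 by construction. Yap1, Wwtr1, Tead1, Tead2 and Lats1 were below 0 under every alternative run, Yap1 between -2.50 and -1.13 and Lats1 between -0.96 and -0.05, whereas Lats2, Amotl2 and Tead3 changed sign among the alternatives.

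**Figure D3:**
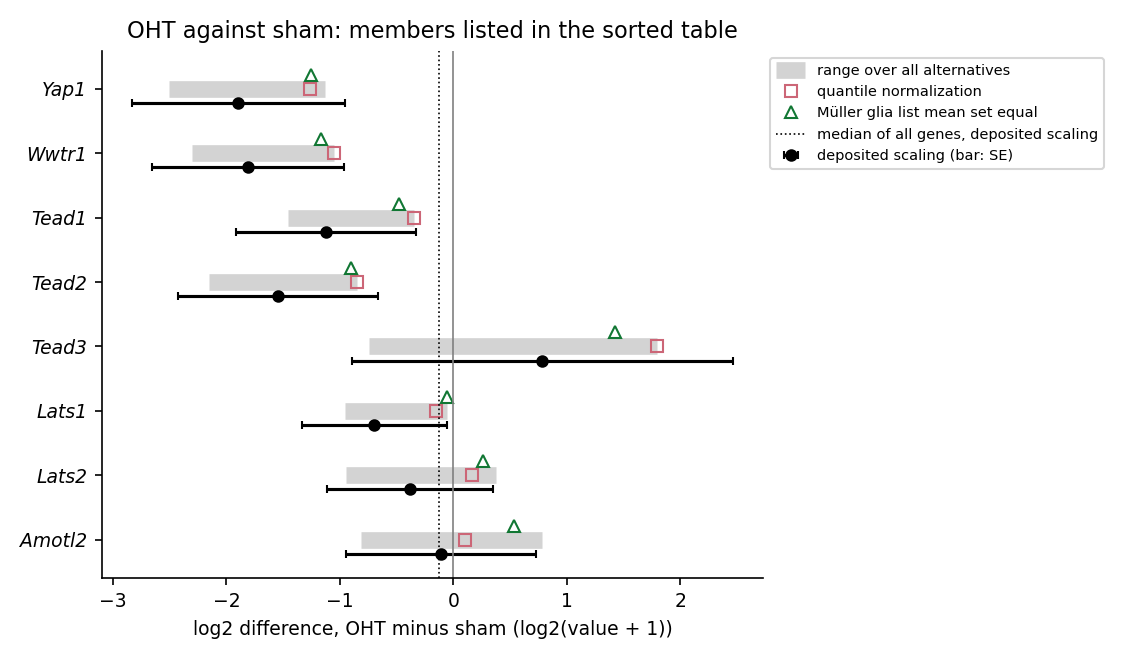
Log2 difference of OHT minus sham for the 8 members in the sorted table. Black points with bars are the deposited scaling with its SE, open squares quantile normalisation, open triangles the Müller glia list set equal, and grey bands span all alternatives, such as -2.50 to -1.13 for Yap1. The bands of Tead3, Lats2 and Amotl2 cross 0.

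Some of the marker lists also differed between sham and OHT. The mural cell and fibroblast list made 0.0119% to 0.0264% of the sham libraries and 0.00101% to 0.00558% of the OHT libraries. The endothelial list made 0.0218% to 0.0466% against 0.0108% to 0.0204%, and neither summed share overlapped. All 9 genes of the first list and all 8 of the second were listed in the sorted table. As a geometric mean of its genes the endothelial list overlapped, at 5.62 to 21.2 ppm in sham and 3.57 to 5.93 ppm in OHT. The mural list did not, at 2.55 to 5.12 ppm against 0.776 to 2.24 ppm. Rgs5 had the largest sham mean of the mural list, 172 ppm. Kcnj8 (3.63 ppm in sham, 5.81 ppm in OHT) and Lum, near 0 reads, had higher means in OHT, and the other genes of that list lower ones. The 6-gene list of retinal astrocytes overlapped, with 0.00286% to 0.134% in sham and 0.00244% to 0.0113% in OHT, as did the Müller glia list. The rod list made 0.283%, 2.63% and 2.14% of the sham libraries and 0.102% to 0.351% of the OHT libraries. The part of these cell types in the members' values was not tested. Counted per 1000 reads of the Müller glia list, Wwtr1 was at 1.66, 0.480 and 1.73 in sham and 0.258, 1.43 and 0.354 in OHT, so that the groups overlapped. On the same scale Tead1 (0.750 to 1.19 in sham, 0.392 to 1.14 in OHT) and Lats1 (1.14 to 2.54 in sham, 0.899 to 3.74 in OHT) overlapped as well.

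The wider pathway was read from 4 lists by role. Over the lists and members together 49 of 53 genes were listed and 47 tested, and 0 passed the threshold. At an unadjusted p below 0.05, 8 of the 47 were lower (17.0%) and 0 higher, beside 6.3% and 5.37% of all genes. Of the 16 core kinases and scaffolds, 3 were lower without overlap (Lats1, Wwc2 and Taok2) and 0 were higher, beside 9.18% and 9.26% of all genes, and the median log2 difference was -0.08. Wwc2, a scaffold that activates LATS, had means of 1038 normalised counts in sham and 515 in OHT (difference of -1.31 on the log2 scale with SE 0.63 and limma adjusted p = 0.448). Taok2, a kinase upstream of the cascade, had means of 610 and 307 (-0.98 with SE 0.56, limma adjusted p = 0.502). Wwc1 (KIBRA), a relative of Wwc2, had means of 343 and 108 with overlap (-1.87 on the log2 scale, SE 1.08, limma adjusted p = 0.504), and the large cadherin Fat4 82.1 and 48.6. For 8 other genes of the cascade the OHT means were close to or above the sham means. Stk3 (MST2) had a mean of 1498 in sham and 2109 in OHT, Stk4 (MST1) 1482 and 1598, and the scaffold Sav1 163 and 261. Mob1a, a LATS coactivator, had means of 4431 and 4384, and its paralog Mob1b 132 and 392, the latter carried by OHT replicate 1 at 913. The tumour suppressor Nf2 had means of 811 and 799, Taok1 3267 and 4402, and Map4k4, a kinase parallel to MST, 1063 and 1564. Limma adjusted p for these 8 genes lay between 0.604 and 0.962.

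Among 8 angiomotins, LIM proteins and other YAP binders 7 were tested, 2 were lower without overlap (Amotl1 and Ajuba) and 0 were higher, beside the same 9.18% and 9.26% of all genes, and the median log2 difference was -1.16. Amotl1, an angiomotin, was at 427, 635 and 268 normalised counts in sham and 119, 204 and 250 in OHT (limma adjusted p = 0.498). Ajuba, a LIM protein that inhibits LATS, had means of 276 and 81.9. Amot had means of 115 and 42.2 with overlap. Ptpn14, a phosphatase that binds YAP, was under the filter, with 47 reads over the sham and 10 over the OHT libraries.

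Of the coactivators, TEADs and VGLL cofactors 7 of 10 were tested, with Vgll1, Vgll2 and Tead4 not listed. Vgll3, a cofactor that binds TEADs, was at 22.7, 13.8 and 34.5 normalised counts in sham and at 0 in all 3 OHT libraries. These values rest on 73 reads in sham. A count of 0 in an OHT library allows up to between 0.0560 and 0.0636 ppm, depending on its depth, against a sham mean of 0.581 ppm. Vgll4, an inhibitor of YAP at TEADs, had means of 3169 in sham and 3373 in OHT.

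The target list held 22 genes, of which 21 were listed and 19 tested. Ccn2, F3, Foxf2 and Rbms3, 4 of the 19, were lower without overlap and 0 were higher, beside 9.18% and 9.26% of all genes. In this list 15 of 19 log2 differences were below 0, as were 54.8% of those of all genes, and the median was -0.61. Ccn2 encodes the matricellular protein CTGF. It was at 133, 870 and 980 normalised counts in sham and 62.2, 75.7 and 61.7 in OHT. The 3 OHT libraries lay close together below sham replicate 1, which was itself far below the other sham libraries. OHT minus sham was -2.85 on the log2 scale (SE 0.89, limma adjusted p = 0.332). Ccn2 was the listed gene that DESeq2 on the recovered reads called (DESeq2 adjusted p = 0.00358), where that tool called 0.375% of genes higher and 1.36% lower. Over all alternatives the adjusted p of Ccn2 ran from 0.00358 to 0.906, so its call rests on that tool.

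Ccn1 encodes the related protein CYR61. It was at 5529, 25235 and 17995 in sham and 4813, 7004 and 9794 in OHT, with overlap through sham replicate 1 (-0.98 on the log2 scale with SE 0.52, limma adjusted p = 0.479). F3, tissue factor, had means of 1193 and 334. Foxf2, a transcription factor of mural cells, had means of 49.3 ± 25.8 in sham and 6.22 ± 8.88 in OHT (SD, n = 3). Rbms3, an RNA-binding protein, had means of 51.3 ± 31.8 and 4.39 ± 7.60. Depth limited both genes, which had values at or near 0 reads. Higher OHT means were found for other targets. Axl, a receptor tyrosine kinase, had a mean of 5988 in sham and 8611 in OHT, and Gadd45b, a stress response gene, 3718 and 5867, both with overlap (limma adjusted p = 0.607 and 0.480). Crim1, a transmembrane protein, had a lower mean in OHT instead, with 744 in sham and 578 in OHT and overlap.

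**Figure D4:**
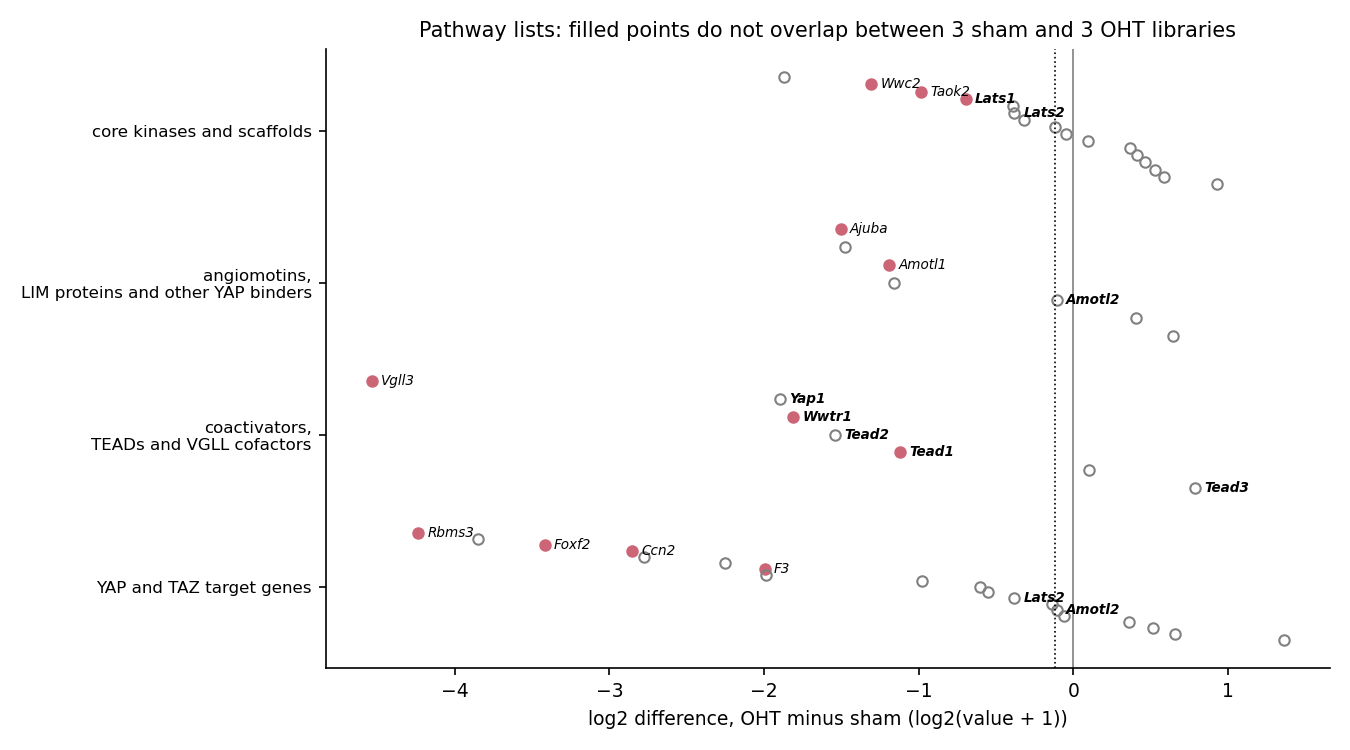
Log2 difference of OHT minus sham for each tested gene of the 4 pathway lists. Filled points are genes whose 3 sham and 3 OHT values do not overlap, members are in bold, and the dotted line is the median of all genes, -0.12. All filled points lie below 0, and 0 genes passed the adjusted threshold.

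The primary cultures were set beside the sorted libraries for the level of each member. The tables had been normalised separately, so levels are in ppm of each library's total and no test was made across them. All 8 members listed in both tables were higher in every culture than in every sham and every OHT library. Of all genes 39.8% were higher than sham without overlap (28.7% lower) and 39.2% higher than OHT (19.3% lower). The median ratio of the 8 members was 15.5 to sham and 30.9 to OHT, beside 1.14 and 1.30 over all genes. Ratios of 10 or more to sham were held by 6.05% of all genes.

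Yap1 had a mean of 46.7 ± 2.80 ppm in the cultures (SD, n = 3), 4.88 times its sham mean and 24.9 times its OHT mean. These ratios were 11.3 without sham replicate 2 and 41.7 without OHT replicate 2. Wwtr1 had a mean of 43.6 ± 10.8 ppm, 7.15 and 24.8 times these means, the latter 39.6 without OHT replicate 2. The TEAD genes stood further above the sorted cells. Tead1 was at 164, 184 and 163 ppm in the cultures, 31.3 times sham and 68.7 times OHT, or 104 times without OHT replicate 3. Tead3 had a mean of 11.0 ± 1.58 ppm, 28.4 times a sham mean that includes a 0, with 18.9 times without sham replicate 1 and 52.2 times without sham replicate 3. Tead2 was at 59.8, 161 and 179 ppm, 21.7 times sham and 64.4 times OHT (130.1 times without OHT replicate 2), and its low value in culture replicate 1 gave a spread of 2.80-fold that 1.38% of 11573 genes matched or exceeded. Tead4 was at 4.92, 5.74 and 7.49 ppm.

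Lats1 had the smallest ratio of the members, 2.27 to sham, with a culture mean of 23.5 ± 2.38 ppm, whereas Lats2 had a mean of 109 ± 11.7 ppm, 9.31 times sham and 10.1 times OHT (18.1 times without OHT replicate 3). Amotl2 was at 211, 355 and 355 ppm, 37.4 times sham, the largest such ratio of the members with all libraries in, though below Tead3 without sham replicate 3. Ankrd1, not listed in the sorted table, was at 193, 247 and 196 ppm, above 94.5% of the genes of the culture table. Of the target list 16 of 21 genes were higher in every culture than in every sham library and 2 were lower. The shares over all genes were 39.8% and 28.7%. Among the higher targets were Ccn1 (1298 ppm, 3.23 times sham), Ccn2 (109 ppm, 6.72 times) and Axl (2249 ppm, 15.3 times). Gadd45b, at 0.205 of its sham mean, was not among them. Of the core kinases and scaffolds 13 of 16 were higher and 2 lower, beside the same shares, with a median ratio of 2.30. Vgll3 was at 153, 183 and 145 ppm in the cultures and Ptpn14 at a mean of 60.4 ppm, while Vgll4 was at 0.968 and Mob1a at 0.579 of sham. The cultures also differed from the sorted cells in passaging and marker lists. Animal age and strain may differ too, since neither is given for the sorted mice. None of these can be told apart from the culture itself.

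Levels between genes were compared per kb of the longest annotated transcript. In the cultures the order of mean levels per kb was Ankrd1 (105 ppm per kb), Amotl2 (70.9), Tead2 (39.2), Lats2 (20.9), Tead1 (17.1), Yap1 (11.2), Wwtr1 (9.27), Tead3 (3.97), Lats1 (3.25) and Tead4 (1.97). Neighbours whose library values overlapped were Amotl2 and Tead2, Tead2 and Lats2, Lats2 and Tead1, Yap1 and Wwtr1, and Tead3 and Lats1. Within each culture library the order was the same, except that Lats2 stood above Tead2 in culture replicate 1. With mean in place of longest transcript lengths Amotl2 came in place 1, Tead2 in place 2 and Ankrd1 in place 3. In the sham libraries the means were 2.30 ppm per kb for Yap1, 2.25 for Lats2, 1.90 for Amotl2, 1.81 for Tead2, 1.43 for Lats1, 1.30 for Wwtr1, 0.547 for Tead1 and 0.140 for Tead3. The library values of the first 6 overlapped with each other, and Yap1 was the highest in sham replicate 2 alone. In OHT the means were 2.06 ppm per kb for Lats2, 1.72 for Amotl2, 0.911 for Lats1, 0.609 for Tead2, 0.449 for Yap1, 0.373 for Wwtr1, 0.249 for Tead1 and 0.107 for Tead3. All neighbours in this order overlapped in their library values. Within each OHT library, though, Yap1 stood above Wwtr1 and Tead1 above Tead3.

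Proportions within a library do not depend on its scaling. They were formed after the values had been seen and are given as descriptions. Yap1 and Wwtr1 together, divided by the summed TEAD genes per kb, gave 1.43, 1.67 and 1.12 in sham, 0.675, 0.900 and 0.847 in OHT, and 0.458, 0.315 and 0.275 in the cultures. The 3 groups did not overlap, and with mean transcript lengths they did not overlap either (0.464 to 0.730 in sham, 0.294 to 0.383 in OHT, 0.113 to 0.190 in the cultures). Tead4 entered the sum in the cultures alone, where it made 2.58% to 4.10% of the TEAD level. Yap1 over Wwtr1 was 0.529, 5.13 and 0.803 in sham, 1.07 to 1.38 in OHT and 1.02 to 1.70 in the cultures, so that sham varied on both sides of the other groups. Lats2 over Lats1 was 0.957 to 2.22 in sham, 1.29 to 2.87 in OHT and 6.20 to 6.90 in the cultures. Tead2 made the largest share of the TEAD level per kb in 8 of 9 libraries. The exception was OHT replicate 3, where Tead1 made 49.1% and Tead2 38.3%. With mean transcript lengths Tead2 led in 7 of 9, since Tead1 also led in culture replicate 1, with 49.2% against 44.5%.

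**Figure D5:**
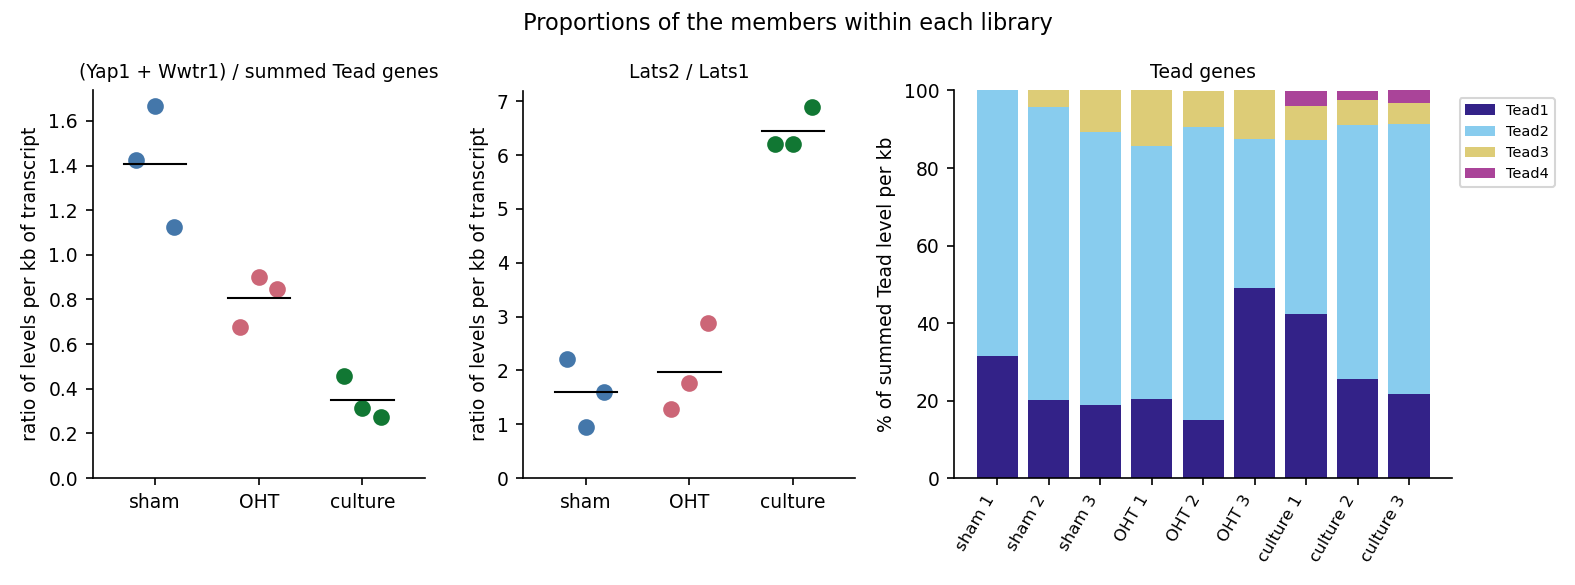
Proportions of the members within each library, from levels per kb of the longest transcript. Left, Yap1 plus Wwtr1 over the summed TEAD genes; centre, Lats2 over Lats1; points are libraries and lines group means; right, the percentage of the TEAD level from each TEAD gene. The ratio of coactivators to TEADs runs from 1.12 to 1.67 in sham down to 0.275 to 0.458 in the cultures.

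The genes whose normalised counts followed Yap1 most closely over the 6 sorted libraries, among 11475 genes with a mean of at least 100, were Srr (Pearson r = 0.991), Klf15 (0.990), Rab5b (0.986), Pygb (0.982) and Nbr1 (0.981). Klf15, a transcription factor, ran at 131, 895 and 217 in sham and 34.5, 167 and 36.9 in OHT, with the same high sham replicate 2 as Yap1. Those most like Wwtr1 were Calb2 (0.994), Proser3 (0.989), Mast1 (0.989), Jmjd8 (0.988) and Cert1 (0.987). Calb2, the calcium-binding protein calretinin, was at 427, 290 and 644 in sham and 35.9, 218 and 94.6 in OHT. None of these 10 genes was on a pathway list, and with 6 libraries such values of r describe these libraries only.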

How the data were processed

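RNA of 6 GLAST-sorted pools (3 sham, 3 OHT) and 3 primary cultures was amplified with a template-switching kit for ultra-low input and sequenced as 150 bp paired-end reads, per the labels' protocols. Per the submitters' processing notes, bcl2fastq 2.20, Trim Galore 0.6.6, FastQC 0.11.9 and STAR 2.7.1a were used with build mm39. The sources used here do not name the counting program, annotation, normalisation tool or gene filter. The deposited signal is a gene count divided by 1 factor per library, with 1 table for the sorted pools and 1 for the cultures, normalised separately by the authors. Dividing by the smallest step gave whole reads for 100% of values (tolerance 0.05 reads), 37.8 to 53.6 M reads in the sorted libraries and 66.3 to 76.7 M in the cultures. The step of culture replicate 3 is too close to 1 to be an independent check. For a count of 0 the limit was set at 3 reads. This covers counting error alone, because the cDNA was amplified and carried no molecular identifiers.

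OHT was compared with sham by limma 3.58.1 (R 4.3.3, variance trend, no covariate) on log2(value + 1) in genes with a mean of at least 10, adjusted over 14403 genes, with a threshold of 0.05. Folds on this scale understate low genes. The labels do not say whether pools shared animals, so p-values measure the spread between these libraries, which may be technical. edgeR 4.0.16 and DESeq2 1.42.0 were run on the recovered reads of the sorted libraries as alternatives. Other alternatives were pseudocounts of 0.5 and 10, no filter and a minimum mean of 100, TMM factors, quantile normalisation, the Müller glia list set equal, no variance trend, array weights, a replicate block, leaving out each library, and, for levels, a total without the 20 highest genes, the median gene and mean transcript lengths. Lengths came from an annotation of GRCm38, and promoter sequences from RefSeq on GRCm38.p6. The genes named were the 10 members, 17 pathway genes fixed by role, other listed genes past the threshold or without overlap, and the 5 genes most like Yap1 and Wwtr1. Cell type lists also covered cones, bipolar, amacrine and ganglion cells and pigment epithelium, and their shares are given with the other observations. A gene of the lists is not reported here and was left out of the list counts. The members and lists were chosen with earlier results of these data known. The fits were checked on simulated counts with changes larger than those of the members. That check does not show their power at the smaller differences reported here.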

Additional observations from a re-analysis of the deposited data

How the results depend on the processing

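Of 143 values of the members' log2 difference under the alternatives, 130 kept their direction and their side of the threshold, and the other 13 changed sign. The signs changed as follows, and the cause was not tested. Tead3 was at -0.30 in edgeR and -0.22 in DESeq2 on whole reads, and ranged from -0.74 to 1.77 when 1 library was left out. Lats2 was at 0.17 with quantile normalisation, 0.26 with the Müller glia list mean set equal and 0.040 with array weights, and ranged from -0.95 to 0.38 when 1 library was left out. Amotl2 was at 0.10 with quantile normalisation, 0.54 with the Müller glia list set equal, 0.21 in edgeR and 0.31 in DESeq2, and ranged from -0.81 to 0.78 when 1 library was left out. Over all genes, where limma called 0, 56 were called with the Müller glia list set equal (48 higher, 8 lower), 250 by DESeq2 (54 higher, 196 lower) and 0 to 17 when 1 library was left out, with 12 without sham replicate 1 and 17 without sham replicate 3. DESeq2 called 1 listed gene, Ccn2. Same-numbered sham and OHT libraries had correlations of deviations of 0.08, -0.02 and -0.05, and the other combinations ran from -0.07 to 0.10. With so few libraries these values cannot settle whether the replicate numbers pair them, and the labels do not say. A replicate block called 2 genes of the table and 0 listed genes. Of 128 ratios of culture to sorted level 127 moved by less than the spread between replicates, which is wide. Leaving out 1 library still moved the ratios of Yap1 and Tead3 to sham by up to 2.33 and 1.84 times and those of Yap1, Wwtr1, Tead1, Tead2 and Lats2 to OHT by 1.51 to 2.02 times. The ratio of Lats1 to sham went from 1.18 to 0.86 on the log2 scale with the total taken without the 20 highest genes. With mean transcript lengths the place in the order per kb became 4 for Yap1, 6 for Tead1 and 2 for Tead2 in sham, 6 for Yap1, 7 for Wwtr1 and 5 for Tead1 in OHT, and 2 for Tead2, 1 for Amotl2 and 3 for Ankrd1 in the cultures. As a geometric mean the cone list had a log2 ratio of OHT to sham of -0.15, against 0.52 as a sum. With Spearman's rho 1 of the 5 genes most like Wwtr1 was shared. Depth limited Tead3, Vgll3, Foxf2 and Rbms3, which had values at or near 0 reads.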

Other observations

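Among the other marker lists, the cone list made 0.0159% to 0.0384% of the sham and 0.0214% to 0.0575% of the OHT libraries, and 3.21e-04% to 3.66e-04% of the cultures. The bipolar cell list made 0.0137% to 0.0157% of sham and 0.00685% to 0.0351% of OHT. The amacrine list made 0.000970% to 0.00191% of sham, 1.05e-04% to 0.000998% of OHT and 0.0298% to 0.0373% of the cultures, where Tfap2b alone had a mean of 321 ppm against 5.34 ppm in sham. The ganglion cell list made 0.00550% to 0.00888% of sham and 0.00186% to 0.00597% of OHT, and the pigment epithelium list 0.00154% to 0.00180% and 3.57e-04% to 0.00400%. The part of these lists in the members' values was not tested.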
